A study of Mus musculus with 4 samples.

Results

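The WNT ligands Wnt5a and Wnt5b, the secreted antagonists Dkk1, Dkk2, Dkk3, Sfrp1, Sfrp2, Frzb and Wif1, and Axin2, a gene switched on by WNT signaling, were followed in mouse embryonic fibroblasts (MEFs) with and without induced Mitf. The members were chosen by name. Every exon of these 10 genes in the deposited exon table was taken, with exon identifiers assigned to genes by GENCODE release M21. That gave 78 exon identifiers at 75 distinct positions, of 234718 listed exons, and 10 of 22823 genes.

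WNT proteins are secreted lipid-modified ligands that bind Frizzled receptors. With the co-receptors Lrp5 and Lrp6 they stabilize β-catenin, which then acts with TCF/LEF factors on target genes, and with receptors such as Ror2 they signal without β-catenin. Secreted antagonists work outside the cell: SFRP proteins and Wif1 bind the ligands, and Dkk1 blocks the co-receptors. In the neural crest and skin, β-catenin signaling favors the melanocyte fate and Mitf is one of its target genes, while Dkk1 made by dermal fibroblasts is known to lower pigmentation.

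RNA was sequenced once per condition, so each group is 1 library and no replicate check exists. Dox (-) and Dox (+) were knock-in MEFs at passage 5, derived from chimeric mid-gestation embryos that were made with KH2 embryonic stem cells carrying M2rtTA at ROSA26 and a tetO-driven melanocyte isoform of Mitf (M-Mitf) next to Col1a1. A single correctly targeted clone was injected, the embryos also held host cells, and an mCherry and a puromycin resistance marker allowed the engineered cells to be isolated. Dox (+) cells received doxycycline (Dox), the drug that switches on tetO, for 6 days, and Dox (-) cells did not. The remaining culture was WT MEF at passage 3, with neither transgene. Its column is named only MEF, and a supplementary gene list of the study gives other values under that name. A further column, named ATCC, matched no label and was not used. Which wild-type MEFs the column MEF holds therefore rests on its name, and every WT MEF value below describes the library in that column. A primary melanocyte library was not analysed here.

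Levels are RPKM, reads scaled by exon length in kb and by library size. The level of a gene in a library is that of its highest exon in that library, which can be a different exon in each library, unless a mean over exons weighted by length is named. Log2 fold changes use RPKM + 1 and understate the change of low genes. Reads per exon were recovered from RPKM at depths of 45000000 reads for WT MEF and Dox (-) and 44000000 for Dox (+), and 72 of the 75 member positions gave whole reads in all 3 libraries, within 0.05 of a read. Intervals on ratios of reads are exact 95% intervals and cover counting error only. A count of 0 allows up to 3 reads, which for a 150 bp exon is 0.444 RPKM in WT MEF and Dox (-) and 0.455 RPKM in Dox (+).

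The labels were checked with markers. Mitf had 1.52 RPKM in WT MEF, 30.8 in Dox (-) and 1544 in Dox (+). The melanocyte genes Tyrp1 and Mlana were at 110 and 133 RPKM in Dox (+) and under 1 RPKM in both other libraries, while Tyr reached 2.37 RPKM in Dox (+). Among the others of the 10 melanocyte markers, Gpr143 had 0.109 RPKM in Dox (-) and 7.42 in Dox (+). Pmel had 4.96 and 13.0 RPKM and Kit 1.35 and 3.64 RPKM in the same order. Dct, Slc45a2 and Sox10 showed no clear rise. Dct had 0.798 and 0.900 RPKM and Slc45a2 0.0585 and 0.0945 RPKM in Dox (-) and Dox (+), and Sox10 was lower in Dox (+), at 1.66 against 6.69 RPKM. The fibroblast collagen Col1a1 was high everywhere, at 4958, 12562 and 2301 RPKM in WT MEF, Dox (-) and Dox (+). The basal keratinocyte genes Krt14 and Krt5 had 32.8, 2.12 and 26.9 RPKM and 0, 0.201 and 0.206 RPKM in the same order. Dox (-) stood apart by macrophage genes. Lysozyme Lyz2 had 27.8, 10820 and 379 RPKM and the receptor Csf1r 8.10, 342 and 11.0 RPKM in the same order, and all 10 macrophage markers were highest in Dox (-).

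Sfrp1, Sfrp2 and Frzb were lower in Dox (+) than in Dox (-), all by more than 4-fold, and Dkk2 was lower by 2.30-fold. Wnt5a and Dkk3 differed little in the level of the highest exon, and Axin2 was higher in Dox (+), 10.4 against 7.18 RPKM. A gene was called where it differed by more than 4-fold and 1 or both of the libraries compared had over 10 RPKM. Of the 7 members over 10 RPKM, 3 were called lower in Dox (+), against 5.41% of the 13300 genes tested, and 0 were called higher, against 1.64%. Sfrp2 and Frzb passed the minimum of 10 RPKM only through Dox (-), where they were high, and Axin2 only through Dox (+). These counts therefore describe the members and support nothing. Over all 10 members the median log2 fold change was -1.01, beside 0.23 over all genes tested.

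Dox (-) had more of most members than WT MEF had. Dkk2, Sfrp1, Sfrp2 and Frzb, 4 of 6 members over 10 RPKM, were called higher in Dox (-), against 8.26% of 13227 genes, and 0 were called lower, against 1.21%. Dkk2 and Frzb passed that minimum only through Dox (-). The median log2 fold change over the 10 members was 1.85, beside 0.01 over the genes tested. In Dox (+) against WT MEF, Dkk2, Sfrp1 and Axin2 were called higher, 3 of 6 against 6.56% of 12935 genes, and Sfrp2 lower, 1 of 6 against 3.4%, with a member median of 0.95 beside 0.27. Here Dkk2 and Axin2 passed the minimum only through Dox (+) and Sfrp2 only through WT MEF. With the mean over exons all 4 of these calls were lost, leaving 0 higher and 0 lower. The 3 comparisons share libraries, so their values are not independent of one another.

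**Figure D1:**
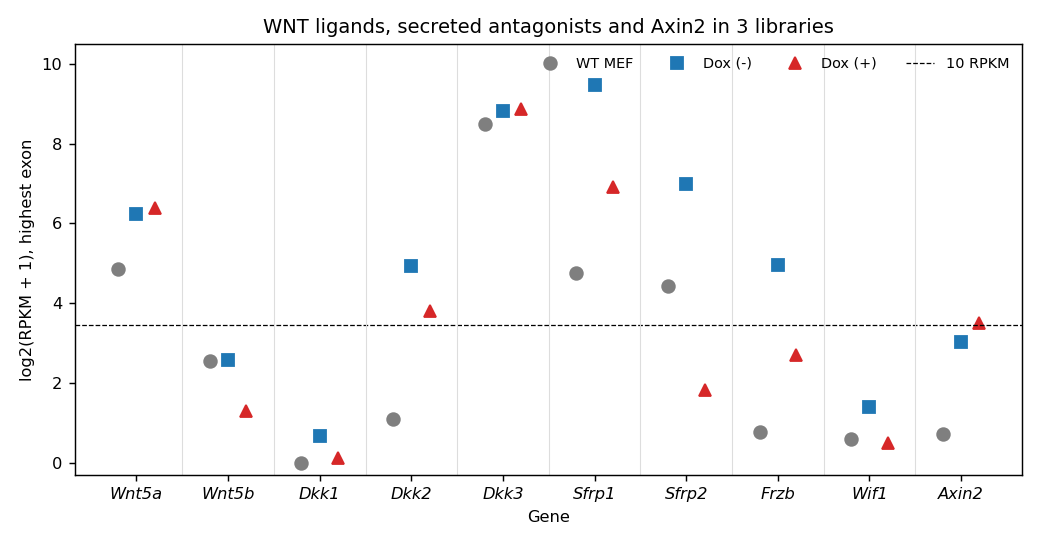
Level of each member in the 3 libraries, as log2 of RPKM + 1 of its highest exon, with 1 library per point and a dashed line at 10 RPKM. Sfrp1, Sfrp2, Frzb and Dkk2 are highest in Dox (-), Dkk3 is between 358 and 463 RPKM in all 3 libraries, and Dkk1 and Wif1 stay below 2 RPKM.

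Per kb, Sfrp1 was the most abundant member in Dox (-) and Dkk3 the most abundant in WT MEF and Dox (+). In Dox (-) the levels ran from Sfrp1 at 714 RPKM through Dkk3 at 454, Sfrp2 at 126, Wnt5a at 74.9, Frzb at 29.9 and Dkk2 at 29.8 RPKM. By the highest exon Frzb and Dkk2 could not be ranked there, since those exons held 86 and 209 reads. Their means over exons were 7.78 and 14.0 RPKM. The Wnt5a levels in this ranking come from a 19 bp exon, and its mean over exons was 29.2 RPKM in Dox (-) and 17.9 in Dox (+). In Dox (+) the order was Dkk3 at 463 RPKM, Sfrp1 at 120, Wnt5a at 82.5, Dkk2 at 12.9, Axin2 at 10.4, Frzb at 5.51 and Sfrp2 at 2.53 RPKM. Sfrp2 was thus among the 3 most abundant members in Dox (-) and stood below 6 others in Dox (+). Bulk RNA does not tell fewer cells of a type from less RNA per cell, which holds for every level given here.

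The exon with the highest RPKM in Dox (-) is shown for each SFRP gene and for Dkk2, since it set the level of the gene there, together with exon 2 of Dkk2, the highest of that gene in Dox (+). They are internal coding exons, read 5′ to 3′ on the gene's strand from the GENCODE M21 transcript sequences, with positions on mm10 (GRCm38). Capitals mark cysteine codons (TGT or TGC) in the reading frame. Cysteines pair into the disulfide bonds that fold the secreted WNT antagonists. Sfrp1 exon 2 of 3 is at chr8:23417330-23417407 on the plus strand, Sfrp2 exon 2 of 3 at chr3:83769326-83769406 on the plus strand, Frzb exon 5 of 6 at chr2:80417893-80417956 on the minus strand, and Dkk2 exons 2 and 3 of 4 at chr3:132173784-132173934 and chr3:132174969-132175124 on the plus strand.
Sfrp1 exon 2: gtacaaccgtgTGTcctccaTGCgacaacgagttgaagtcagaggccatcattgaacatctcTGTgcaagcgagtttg
Sfrp2 exon 2: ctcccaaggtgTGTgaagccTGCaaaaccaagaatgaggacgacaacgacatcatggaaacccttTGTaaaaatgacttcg
Frzb exon 5: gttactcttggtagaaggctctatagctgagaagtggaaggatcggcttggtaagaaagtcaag
Dkk2 exon 2: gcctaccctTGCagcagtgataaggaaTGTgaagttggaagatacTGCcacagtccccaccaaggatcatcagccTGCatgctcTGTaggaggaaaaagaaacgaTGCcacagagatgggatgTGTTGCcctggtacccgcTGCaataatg
Dkk2 exon 3: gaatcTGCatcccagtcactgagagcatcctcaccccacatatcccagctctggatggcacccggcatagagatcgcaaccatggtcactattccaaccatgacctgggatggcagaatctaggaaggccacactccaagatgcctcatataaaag
The Sfrp1 exon of 78 bp and the Sfrp2 exon of 81 bp each hold 3 cysteine codons, and the Frzb exon of 64 bp holds 0. In Dkk2, exon 2 of 151 bp holds 9 cysteine codons and exon 3 of 156 bp holds 1.

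Sfrp1 encodes a secreted Frizzled-related protein that binds WNT ligands through a Frizzled-like domain, and lies at chr8:23411502-23449632. Its exon 2, printed above, had 25.9 RPKM in WT MEF, 714 in Dox (-) and 120 in Dox (+). Dox (-) was thus the highest library and WT MEF the lowest, with Dox (+) between them. The 3467 bp last exon held 1790 reads in WT MEF, 38568 in Dox (-) and 5688 in Dox (+). On that exon Dox (-) was 6.63-fold over Dox (+), with an interval of 6.45 to 6.82, and 21.5-fold over WT MEF. For Dox (-) over Dox (+), the first exon gave 4.41-fold, with an interval of 3.98 to 4.90. Exon 2 gave 5.95-fold, with an interval of 5.36 to 6.62, so the 3 exons pointed the same way. The first exon lay below the others beyond counting error, while the intervals of exon 2 and the last exon overlapped. Dox (+) was still 3.25-fold over WT MEF on the last exon.

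Sfrp2, a second Frizzled-related protein, made by embryonic mesenchyme, lies at chr3:83766321-83774316. Exon 2 had 20.6 RPKM in WT MEF, 126 in Dox (-) and 2.53 in Dox (+), the widest range of any member. Unlike Sfrp1, Sfrp2 was lowest in Dox (+), below WT MEF. Its 1199 bp last exon held 479 reads in WT MEF, 2120 in Dox (-) and 51 in Dox (+). Dox (-) was 40.6-fold over Dox (+) there, with an interval of 30.8 to 54.8, and 4.43-fold over WT MEF. That exon overlaps another annotated gene, Gm26771, while exons 1 and 2 overlap none and gave 41.2-fold and 50.1-fold for the same ratio. The log2 fold change of Dox (+) against Dox (-) was -5.18, and -2.61 against WT MEF.

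Frzb, also called secreted Frizzled-related protein 3 and first known from cartilage, lies at chr2:80411970-80447625. Exon 5, printed above, had 0.694 RPKM in WT MEF, 29.9 in Dox (-) and 3.91 in Dox (+), where exon 3 was the highest at 5.51 RPKM. Frzb was close to the floor of 3 reads per exon in WT MEF, where exons 2 and 3 held 0 reads. The 1503 bp last exon held 30 reads in WT MEF, 612 in Dox (-) and 99 in Dox (+), which made Dox (-) 6.04-fold over Dox (+), with an interval of 4.88 to 7.55. Across its 6 exons this ratio ran from 3.91 to 7.64. On the last exon Dox (-) was 20.4-fold over WT MEF, with an interval of 14.1 to 30.5, and Dox (+) 3.38-fold, with an interval of 2.22 to 5.26. With the mean over exons, Frzb had 7.78 RPKM in Dox (-) and 1.40 in Dox (+), under the minimum of 10 RPKM, and was not called.

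**Figure D2:**
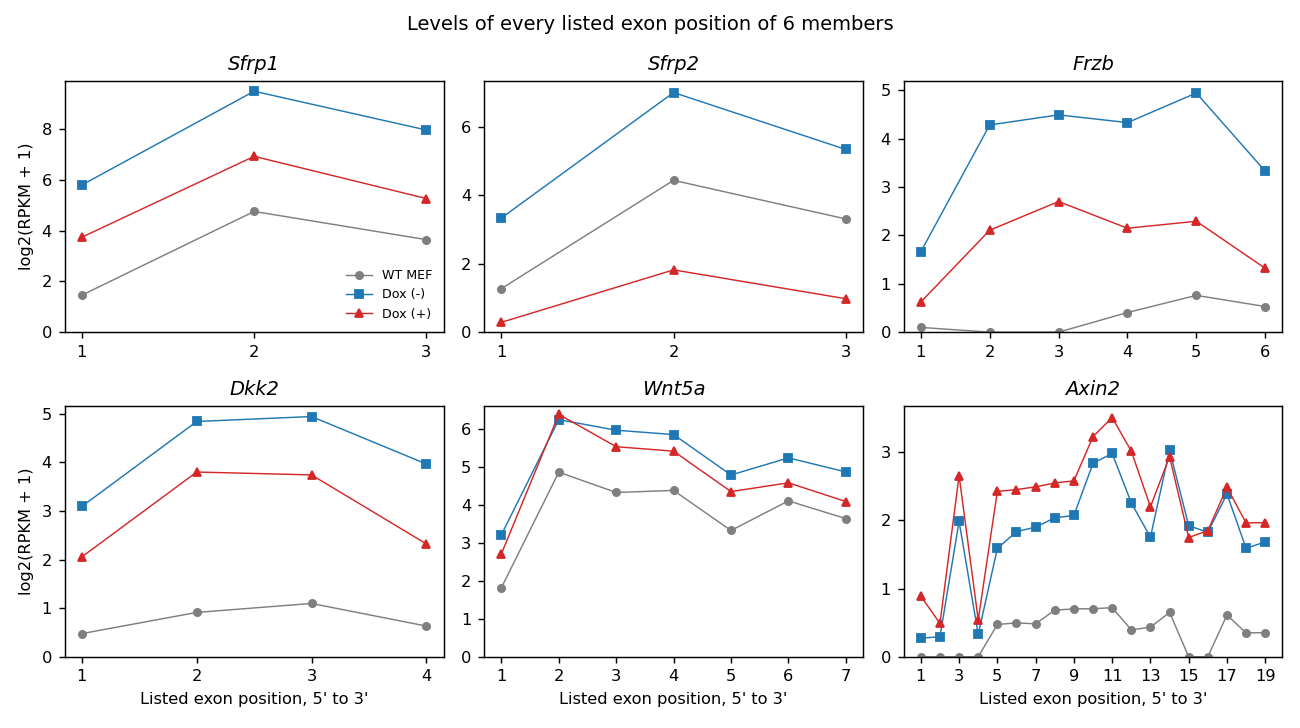
Level of every listed exon position of Sfrp1, Sfrp2, Frzb, Dkk2, Wnt5a and Axin2, as log2 of RPKM + 1, numbered 5′ to 3′, in WT MEF (gray circles), Dox (-) (blue squares) and Dox (+) (red triangles). The Dox (-) line lies above Dox (+) at all exons of Sfrp1, Sfrp2, Frzb and Dkk2, and the lines cross in Wnt5a at position 2 and in Axin2 at positions 14 and 15.

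Dkk2 binds the co-receptor Lrp6 and can block or support signaling depending on the cell. It lies at chr3:132085292-132180304. Exon 3 had 1.14 RPKM in WT MEF, 29.8 in Dox (-) and 12.4 in Dox (+), and exon 2, the highest in Dox (+), had 0.883, 27.7 and 12.9 RPKM, so both knock-in libraries were above WT MEF. The 963 bp first exon held 17 reads in WT MEF, 327 in Dox (-) and 134 in Dox (+). Dox (-) was 2.39-fold over Dox (+) there, with an interval of 1.95 to 2.94, and the exons 2 and 3 printed above gave 2.14-fold and 2.40-fold. The longest exon, the 2435 bp exon 4, did not give whole reads and had 14.6 RPKM in Dox (-) and 4.0 in Dox (+), and the mean over exons gave a ratio of 3.10. Dox (-) was 19.2-fold and Dox (+) 8.06-fold over WT MEF on the first exon. With the mean over exons, Dox (+) had 4.50 RPKM and its call against WT MEF was lost.

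Dkk3 is a divergent member of the Dickkopf family, at chr7:112116017-112159057 on the minus strand. It was the member that differed least, with 358 RPKM in WT MEF, 454 in Dox (-) and 463 in Dox (+). Exon 3, of 138 bp, held 1793, 2411 and 2457 reads in the same order. The ratio of Dox (+) to Dox (-) on it was 1.04, with an interval of 0.985 to 1.10. Single exons moved around that value, since exon 7 gave 195 RPKM in Dox (+) and 136 in Dox (-), while the long last exon gave 142 and 173 RPKM. Whether Dkk3 was higher or lower in Dox (+) turned on the scale, with log2 fold changes of 0.03 for the highest exon, -0.13 for the mean over exons and -0.23 once the median ratio between the libraries was set to 1.

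Dkk1, the Dickkopf antagonist of Lrp5 and Lrp6, at chr19:30545863-30549665 on the minus strand, was at the detection limit. It held 0 reads on all 4 exons in WT MEF, up to 7 reads on an exon in Dox (-) and up to 4 in Dox (+). On the last exon, with 0, 7 and 4 reads, the interval of the ratio of Dox (-) to WT MEF began at 1.44. That of Dox (-) to Dox (+) ran from 0.435 to 7.97, so a difference between these libraries was not detectable at this depth.

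Wif1 encodes a secreted protein with a WNT-binding domain of its own, unlike that of the SFRP proteins, and lies at chr10:121033960-121100650. Its levels, each on a different exon, were 0.526 RPKM in WT MEF, 1.62 in Dox (-) and 0.417 in Dox (+), so no library passed the minimum of 10 RPKM. Reads lay along the whole gene only in Dox (-), where each of 13 positions held at least 1 read. In WT MEF the reads sat on the last exon, with 21 there and 0 on every other exon. On that 893 bp exon Dox (-) held 27 reads and Dox (+) 2. Dox (-) over Dox (+) was 13.2-fold, with an interval of 3.32 to 115.

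Wnt5a, a ligand best known for signaling without β-catenin through Ror2, lies at chr14:28504750-28527448. Its highest exon had 28.1 RPKM in WT MEF, 74.9 in Dox (-) and 82.5 in Dox (+). That exon is a noncoding alternative first exon of only 19 bp with 24, 64 and 69 reads, inside an intron of the longer transcript. The ratio of Dox (+) to Dox (-) on it was 1.10, with an interval of 0.773 to 1.57. Every other position of Wnt5a was lower in Dox (+), and the 2953 bp last exon held 2155 reads in WT MEF, 4883 in Dox (-) and 2981 in Dox (+). Dox (-) was 1.60-fold over Dox (+) there, with an interval of 1.53 to 1.68, and 2.27-fold over WT MEF. The direction for Wnt5a therefore differed with the measure, with a log2 fold change of 0.14 for the highest exon, -0.68 for the mean over exons and -0.12 after rescaling.

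Wnt5b, the closest relative of Wnt5a, at chr6:119432531-119544347 on the minus strand, was a low-level gene in all 3 libraries. Its levels were 4.85 RPKM in WT MEF, on the last exon, and 4.93 in Dox (-) and 1.47 in Dox (+), on a 248 bp coding exon that had 4.39 RPKM in WT MEF. Dox (+) was the low library on both exons. The last exon held 289, 204 and 42 reads in the same order, which made Dox (-) 4.75-fold over Dox (+), with an interval of 3.39 to 6.79, and WT MEF 6.73-fold over Dox (+). WT MEF was also 1.42-fold over Dox (-) there, with an interval of 1.18 to 1.70. Wnt5b stayed under the minimum of 10 RPKM and was not called. The sign for Dox (-) against WT MEF changed with the measure, from a log2 fold change of 0.02 for the highest exon to -0.32 for the mean over exons.

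Axin2, a scaffold of the complex that degrades β-catenin and a widely used readout of β-catenin signaling, lies at chr11:108920349-108950783. The 103 bp exon 4 of transcript 201 had 0.647 RPKM in WT MEF, 6.90 in Dox (-) and 10.4 in Dox (+), and exon 7, the highest in Dox (-), had 0.570, 7.18 and 6.64 RPKM. Both knock-in libraries were above WT MEF, and Axin2 was the one member with a higher value in Dox (+) than in Dox (-) for both the level of the highest exon and the mean over exons, which was 3.83 against 2.61 RPKM. The 1515 bp last exon held 19 reads in WT MEF, 151 in Dox (-) and 194 in Dox (+). On it Dox (+) was 1.31-fold over Dox (-), with an interval of 1.06 to 1.64, and the 951 bp exon 2 held 133 and 203 reads. Exons 7 and 8 of transcript 201 went the other way, with 63 and 29 reads in Dox (-) against 57 and 24 in Dox (+), and the intervals of their ratios included 1. For Dox (+) against Dox (-) the log2 fold change of Axin2 was 0.48, beside a median of 0.23 over all genes tested. It was 0.20 without exons that overlap another gene, and 0.24 once the median ratio between the libraries was set to 1. Against WT MEF, Dox (-) was 7.95-fold higher on the last exon, with an interval of 4.92 to 13.6, and Dox (+) was 10.4-fold higher.

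The call of Axin2 against WT MEF rested on a 103 bp exon that overlaps another gene, Gm11670, and without such exons Axin2 was under 10 RPKM. At the 5′ end, 3 alternative first exons that do not overlap each other held the same number of reads, 0 in WT MEF, 4 in Dox (-) and 7 in Dox (+). These exons and the 19 bp exon of Wnt5a lie in introns of other transcripts of their genes, and whether reads spliced across an intron were counted on them was not tested.

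**Figure D3:**
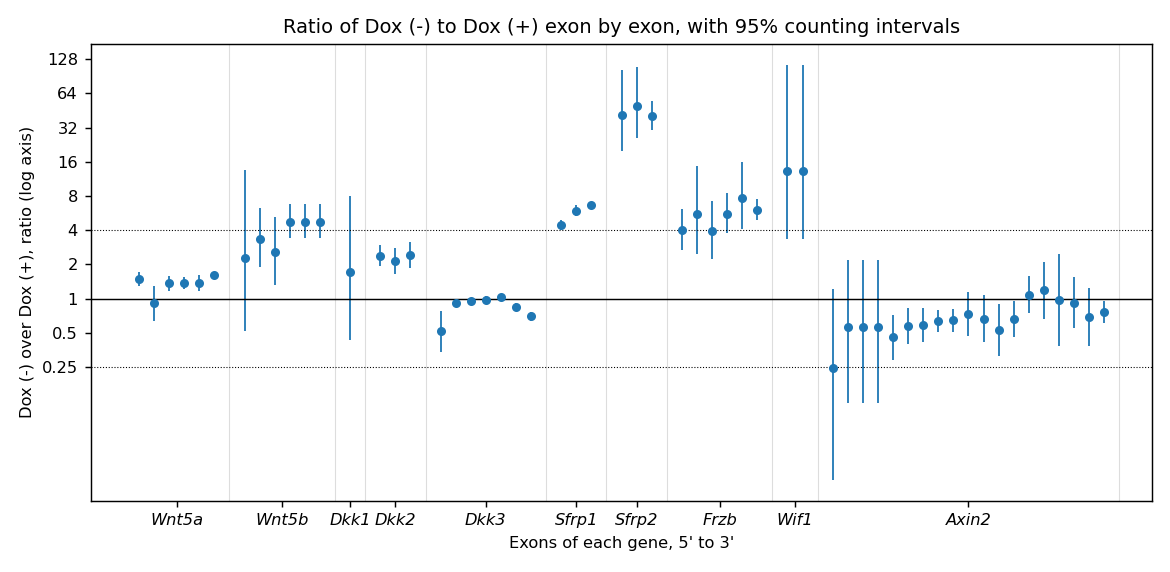
Ratio of Dox (-) to Dox (+) on a log axis for the 56 member exons with at least 10 reads in these libraries together and reads in both, 5′ to 3′ within each gene, with 95% counting intervals and dotted lines at 4-fold. Sfrp2 lies near 40 to 50, Sfrp1 and Frzb near 4 to 8, Dkk2 near 2, Dkk3 near 1, and most Axin2 exons lie below 1.

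Counted by exon position, 34 of 58 member positions with at least 10 reads in Dox (-) and Dox (+) together were lower in Dox (+) and 24 were higher. All of the higher positions belonged to Axin2 and Dkk3 except 1, the 19 bp exon of Wnt5a. In Dox (-) against WT MEF, 50 of 53 positions were higher, and in Dox (+) against WT MEF 39 of 49 were higher. Positions of 1 gene overlap and share reads, so these counts are no sample of independent measurements. Genes as a whole were displaced as well. Dox (+) over Dox (-) had a median log2 ratio of 0.26 across 11788 genes above 10 RPKM, and that of Dox (+) to WT MEF was 0.25 over 11231 genes. Taken against that median, Wnt5a and Dkk3 changed sign and the other members kept theirs.

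The rest of the pathway was read from a list. Of 95 other WNT pathway genes, 62 were over 10 RPKM in Dox (-) or Dox (+), of which 4 were lower and 1 was higher in Dox (+) by more than 4-fold, where all genes tested had 5.41% lower and 1.64% higher. The other pathway genes were thus called about as often as genes at large. Their median log2 fold change was -0.15, beside 0.23 over all genes tested. Among other antagonists 1 of 5 was called lower. Sfrp4, a further Frizzled-related protein, had 3.70 RPKM in WT MEF, 65.6 in Dox (-) and 5.33 in Dox (+), so 4 SFRP genes with Sfrp1, Sfrp2 and Frzb were highest in Dox (-). Among other WNT ligands 1 of 5 was called lower, Wnt16, at 82.7, 42.6 and 4.47 RPKM in WT MEF, Dox (-) and Dox (+).

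R-spondins and their receptors raise WNT signaling by keeping Frizzled receptors on the surface. Their list also held Znrf3 and Rnf43, to which this role does not apply, and had 2 of 6 called lower. Within 4-fold, Lgr6 and Znrf3 were higher in Dox (+) and Rspo3 and Lgr4 lower. Lgr6 had 9.09 RPKM in Dox (-) and 25.3 in Dox (+). Rspo2, a ligand of the group, had 276 RPKM in WT MEF, 75.4 in Dox (-) and 14.6 in Dox (+). Lgr5, its receptor and a WNT target gene, had 11.4, 45.1 and 1.38 RPKM, with a log2 fold change of -4.28 for Dox (+) against Dox (-). Lef1, a transcription factor that acts with β-catenin and is a target gene too, was the gene called higher, at 0.361, 5.56 and 23.7 RPKM. Of the 11 receptors and co-receptors, 15 intracellular transducers and 2 genes of ligand processing and secretion over 10 RPKM, 0 were called in either direction, and Lef1 was the 1 of 12 transcription factor genes called. The usual target genes, with Axin2 and the Lef1 and Lgr5 values above among them, had a median log2 fold change of 0.54 over 12 genes, with 1 called higher and 1 lower.

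**Figure D4:**
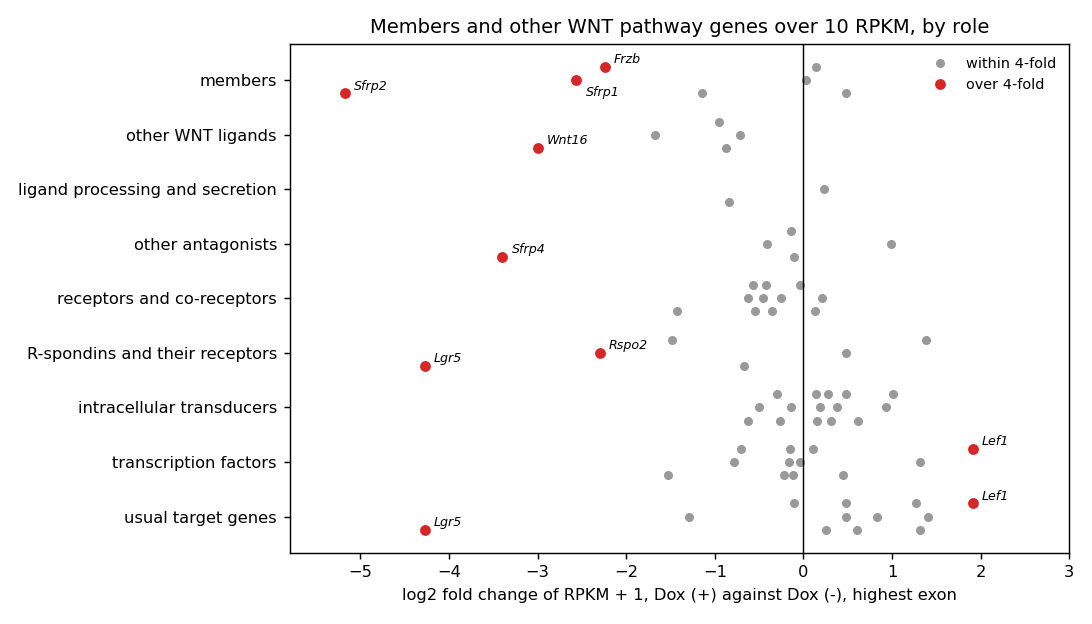
Log2 fold change of RPKM + 1 from Dox (-) to Dox (+) for the 7 members and the other WNT pathway genes over 10 RPKM in either library, by role, with genes over 4-fold in red. Some genes, Lef1 and Lgr5 among them, stand in 2 roles. The red points to the left are Sfrp2, Sfrp1, Frzb, Wnt16, Sfrp4, Lgr5 and Rspo2, and the gene to the right is Lef1.

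The members with the widest range over the libraries, Sfrp2 and Sfrp1, were set beside the genes with the closest levels, measured as the Euclidean distance of log2(RPKM + 1) over 3 libraries. Nearest to Sfrp2 were Col14a1 at a distance of 0.385, Dpt at 0.548 and Sp110 at 0.911. Col14a1, a collagen of connective tissue, had 25.2, 146 and 2.95 RPKM in WT MEF, Dox (-) and Dox (+), and Dpt, which encodes the matrix protein dermatopontin, had 20.4, 123 and 4.15 RPKM. Nearest to Sfrp1 were the growth factor gene Igf1 at 0.661, the chemokine gene Ccl7 at 0.699 and Ctla2a at 1.07. With only 3 libraries many genes can share a pattern.

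Cell type markers also differed between the libraries, in directions that varied by list. The fibroblast list summed to 18419 RPKM in WT MEF, 45826 in Dox (-) and 12528 in Dox (+). Of its 10 genes, 4 were called lower and 0 higher in Dox (+) against Dox (-). With WT MEF as the reference for Dox (-), 5 were called higher, namely Dcn, Lum, Pdgfra, Twist2 and Prrx1, and 0 lower. The sum was mostly that of Col1a1, Col1a2 and Col3a1, which had 12562, 17942 and 10487 RPKM in Dox (-) and 2301, 4089 and 847 in Dox (+). Thy1, Twist2 and Prrx1 had the opposite order, with 2014, 56.8 and 336 RPKM in Dox (-) and 3608, 111 and 474 in Dox (+). The macrophage list summed to 58.4, 17109 and 623 RPKM, with 10 of 10 called lower in Dox (+) and a median log2 fold change of -4.88. Its genes had between 0.0655 and 27.8 RPKM in WT MEF, and none was listed at 0. The part of either cell type in the lower Sfrp1, Sfrp2, Frzb and Dkk2 was not tested. Nor was its part in the difference of these genes between WT MEF and Dox (-). The melanocyte list summed to 6.15, 45.7 and 1816 RPKM, with Mitf itself the largest part in Dox (-) and Dox (+) and Pmel in WT MEF. Schwann markers summed to 15.2, 78.9 and 23.0 RPKM, endothelial markers to 9.37, 17.6 and 5.78 RPKM and keratinocyte markers to 66.6, 8.73 and 32.6 RPKM in the same order. Single genes carried some of these sums. Krt14 made up most of the keratinocyte sum in Dox (+), at 26.9 RPKM, while Trp63 and Cdh1 were lower there than in Dox (-). Tek made up most of the endothelial sum in WT MEF, at 8.22 RPKM, while Pecam1, Cdh5, Kdr and Emcn were higher in Dox (-) than in WT MEF. Of the Schwann genes, only S100b was lowest in Dox (-), at 3.35 RPKM.

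Windows of 250 bp before the starts of RefSeq transcripts were searched for the E-box that MITF is known to bind (CACGTG or CATGTG) and for the TCF/LEF core (CTTTGA), on both strands. RefSeq promoter entries on GRCm38.p6 matched 7 of the 10 members, with 9 windows. Sfrp1, Wnt5a and Dkk3 had no entry and were not searched. Of the 9 windows, 5 reached into the gene as GENCODE annotates it and 4 did not, and every window with a match was among the 5. The Frzb and Dkk1 windows lay mostly inside the gene, and the Wnt5b window with a match lay wholly inside it. An E-box was found in 1 window, that of Wif1, while 17.6% of 32851 windows of all genes held one. The TCF/LEF core was found in the windows of Frzb, Dkk1 and 1 of the windows of Wnt5b, while 13.8% of all windows held it. The windows of Sfrp2, Dkk2 and Axin2 held neither run of letters. These matches are a description of the letters in these windows only.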

How the data were processed

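RNA of cultured MEFs was sequenced in 1 poly(A) selected library per condition. According to the study's methods and the submitters' processing notes, the authors demultiplexed with bcl2fastq 2.17.1.14, aligned the reads to mm10 with TopHat2 2.0.10 and counted reads per Ensembl exon with bedtools. The deposited values are RPKM per exon. The library kit named in the methods does not mark strand, so overlapping genes share reads. The choice of the exons in the table is not given in the sources used here. Columns were assigned to libraries by name. The number of value columns whose name matched no library, and that were not used, was 1, so primary melanocytes (PMel) were not analysed here and the comparison of PMel with WT MEF in the plan was not run.

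Exon identifiers were matched to GENCODE M21, for 228132 of 234718 exons. Reads were recovered from RPKM as whole numbers, for 97.2% to 97.4% of low exons per library. Ratios of reads have exact binomial 95% intervals. With 1 library per condition no p-value was computed. The thresholds for calls, above 10 RPKM and above 4-fold, are those the study applied to exons over all samples and to MEF against melanocytes, and were used here per gene on its highest exon for each pair of libraries, and the pseudocount of the log2 values was 1 RPKM. Named were all members, other WNT pathway genes called in Dox (+) against Dox (-), at most 8, the 3 nearest genes for 2 members, and the label markers. Members, lists and tests were chosen with earlier results of these data known. The alternatives changed the measure of a gene's level, exons overlapping other genes, the thresholds, the pseudocount and the scaling. The steps were tested on simulated data. Python 3.11.15, pandas 2.3.3, NumPy 2.4.6, SciPy 1.17.1 and matplotlib 3.10.9 were used.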

Additional observations from a re-analysis of the deposited data

How the results depend on the processing

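Shifts of single members were set against the margin, on a log2 scale, of the counting interval of the member's most-read exon. Of 180 values under an alternative setting, 134 moved by less than that margin and 46 by more. Of those 46, 5 changed sign, all given above for Wnt5a, Dkk3 and Wnt5b. The margin has no end where that exon held 0 reads in a library. Dkk1 against WT MEF could therefore not count as moved, although its log2 fold change in Dox (-) went from 0.67 to 2.79 with a pseudocount of 0.1 RPKM. In Dox (+) against Dox (-), Sfrp1 and Sfrp2 were called lower at every alternative run except the fold threshold of 8, which left 1 member, Sfrp2. Frzb was lost with the mean over exons, with a minimum of 30 RPKM and with a pseudocount of 5 RPKM. The member median was -1.71 with a pseudocount of 0.1 RPKM and -0.45 with one of 5 RPKM. In Dox (-) against WT MEF, the mean over exons gave a median of 1.32, the pseudocounts gave 2.70 and 1.19, and a minimum of 30 RPKM left 2 members higher. In Dox (+) against WT MEF, the mean over exons left 0 higher and 0 lower with a median of 0.35, a minimum of 30 RPKM and a pseudocount of 5 RPKM each left 1 higher and 0 lower, and rescaling left 1 higher, Dkk2. The median over all genes tested moved with these settings too. Genes called over the whole table in Dox (+) against Dox (-) ran from 92 higher and 415 lower at 8-fold to 1438 higher and 1470 lower at 2-fold, and rescaling gave 152 and 833. For the changes not explained by fewer genes passing a minimum, the cause was not tested. No replicate can be left out, and no paired analysis was possible because each condition has 1 library. The settings planned for PMel were not run. Depth limits Dkk1, Wif1 and the WT MEF values of Dkk2, Frzb and Axin2, which rest on few reads.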
